A study of Bos taurus with 12 samples.

Results

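The genes described here are the cattle Ensembl IDs numbered ENSBTAG00000043544 to ENSBTAG00000043584, the block that the cattle annotation gives to the mitochondrial genome. The block spans 41 possible IDs, and 16 of them were among the 22445 loci of the deposited table. RNA had been sequenced from Holstein cattle in 4 groups of 3 libraries each. The first group was bovine fetal fibroblasts, connective tissue cells of a fetus, so named in their titles although their sample group label names SCNT embryos. The other groups were pools of 8 embryos at the 8-cell stage. They came from in vitro fertilisation (IVF), from somatic cell nuclear transfer (SCNT, in which a body cell's nucleus replaces that of the egg), or from SCNT with overexpression of KDM5B, a demethylase of histone H3 lysine 4. The labels used here do not say how KDM5B was introduced or how old the fetus was.

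The mitochondrial genome is a small circle of DNA passed on through the egg. It encodes 13 subunits of the respiratory chain, along with the ribosomal and transfer RNAs of the mitochondrion's own translation. Its genes lie almost end to end and are copied into long transcripts that are then cut apart, so messages made together can still end at different levels through processing and decay. ND1 to ND6 and ND4L belong to complex I, CYTB to complex III, COX1 to COX3 to complex IV, and ATP6 and ATP8 to the ATP synthase. A cleavage-stage embryo lives on the large stock of mitochondria laid down in the egg. In SCNT most mitochondria likewise come from the recipient egg, with a small addition from the donor cell.

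Values were FPKM (fragments counted per kilobase of transcript, relative to all mapped fragments), given by the authors as 1 mean per group and gene. FPKM allows for length, so levels are set against each other between genes here, but other differences in how genes are measured were not checked. No library values were used here, so no SD, interval or test stands beside any value. Differences are between means, and whether they exceed the spread of replicates is not known. Depth is unknown, because such means keep no read totals. Fibroblasts and embryos differed in more than cell type. Embryos were lysed directly and their cDNA amplified, and the design text has the fibroblasts run on a BGISEQ and the embryos on a HiSeq, although the labels' protocol mentions the HiSeq alone. Cell type, amplification and instrument cannot be told apart in comparisons with fibroblasts. In these bulk samples fewer cells or mitochondria and less RNA in each cannot be told apart either.

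The label was checked against the data first. Of the 16 members, 13 stood at 300 FPKM or more in every group, a limit chosen after the values were seen, and the other 3 stayed under 10 FPKM everywhere. The RefSeq gene table of assembly ARS-UCD2.0 lists 37 mitochondrial genes, of which 13 are protein-coding, 22 are transfer RNAs and 2 are ribosomal RNAs. The number of abundant members thus equals the number of protein-coding genes, but that table pairs 0 of its 37063 entries with an Ensembl ID. Which ID is which subunit was therefore not analysed here, members are given by ID, and their roles could not be used to order them. For the same reason nuclear partners and cell type markers were not analysed here. In the RefSeq table ATP8 and ATP6, ATP6 and COX3, ND4L and ND4, and ND5 and ND6 overlap, and the sources used here do not state how reads in such overlaps were divided. Copies of mitochondrial DNA in the nuclear genome could also share reads with these genes.

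The 3 low members behaved unlike the rest. ENSBTAG00000043581.2 stood at 8.28 FPKM in fibroblasts, 0.0767 in IVF, 0.187 in SCNT and 0.0600 in SCNT with KDM5B. ENSBTAG00000043553.2 stood at 1.16 FPKM in fibroblasts and 0.403 in IVF, was listed at 0 in SCNT, and stood at 0.0133 with KDM5B. Both were highest in fibroblasts. ENSBTAG00000043578.2 was at or below 0.0967 FPKM in every group and listed at 0 in IVF. All 3 carry version 2 of their ID, while the 13 abundant members carry version 1. Whether these 3 lie on the mitochondrial genome was not tested. The highest of them, ENSBTAG00000043581.2, was 0.00157% of the fibroblast column.

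The 13 abundant members stand high in every group by the 300 FPKM limit that picked them, and the 3 low members are not counted here. More of the 13 held places near the top in embryos than in fibroblasts. Ordered by level, they held places 1 to 246 in fibroblasts, 4 to 79 in IVF, 2 to 129 in SCNT and 1 to 84 in the KDM5B group. The first 50 places held 5 of the 13 in fibroblasts, 10 in IVF, 11 in SCNT and 11 with KDM5B. Their median level was 973 FPKM in fibroblasts, 3452 in IVF, 4358 in SCNT and 6521 with KDM5B. The levels within a group spanned a wide range. The highest member exceeded the lowest 24.4-fold in fibroblasts, 25.5-fold in SCNT and 16.8-fold with KDM5B, and the narrowest range was that of IVF, from 1002 to 12983 FPKM.

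Together the members held 4.11% of the summed FPKM in fibroblasts, 7.56% in IVF, 10.5% in SCNT and 11.5% in the KDM5B group. The embryo shares thus lay 1.84-fold (IVF) and 2.55-fold (SCNT) above the fibroblast share. The SCNT share was 1.39 times that of IVF, and the share with KDM5B was 1.52 times that of IVF and 1.10 times that of SCNT. The rise from IVF to SCNT lay largely in a few members. ENSBTAG00000043584.1 went from 1.68% to 3.19% of the column, ENSBTAG00000043550.1 from 0.84% to 1.72% and ENSBTAG00000043564.1 from 0.57% to 1.13%. Among the 13 abundant members, 9 held a larger share in SCNT than in IVF and 4 a smaller one. Without each group's highest member the share was 5.89% in IVF, 7.29% in SCNT and 8.72% with KDM5B. A share of a column does not depend on the column's overall scale, but it does depend on the other loci. In IVF 1 locus outside the block held 12.2% of the column by itself. With the 10 highest outside loci left out of each sum, the shares were 4.48%, 9.84%, 12.2% and 13.1%, in the same order of groups. The members' summed FPKM, itself relative to mapped fragments, was 21750 in fibroblasts, 58582 in IVF, 92701 in SCNT and 101865 with KDM5B.

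**Figure D1:**
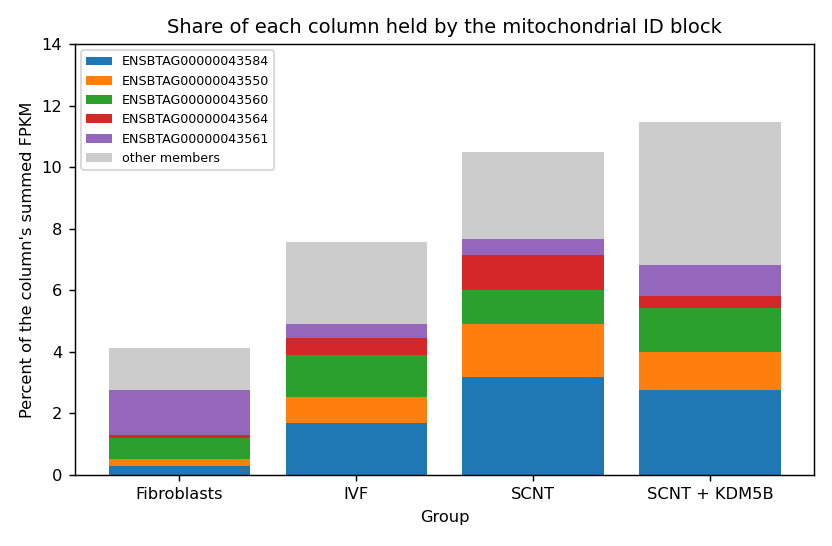
Share of each column's summed FPKM held by the 16 members, in percent (vertical axis), for the 4 groups (horizontal axis); coloured parts are 5 single genes and grey is the remainder. The bars reach 4.11%, 7.56%, 10.5% and 11.5%, and the part of ENSBTAG00000043561 is the largest in fibroblasts while that of ENSBTAG00000043584 is the largest in every embryo group.

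Single genes made up these sums very differently in fibroblasts and embryos. ENSBTAG00000043561.1 stood at 7655 FPKM in fibroblasts, the highest value of any locus there, and at 3452 in IVF, 4660 in SCNT and 9153 with KDM5B. It made up 35.2% of the members' sum in fibroblasts against 5.89%, 5.03% and 8.99% in the embryo groups. It was the only abundant member that fibroblasts held at a higher level than IVF or SCNT embryos as deposited, 2.22 times and 1.64 times as high.

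ENSBTAG00000043584.1 showed the opposite picture. It stood at 1543 FPKM in fibroblasts, 12983 in IVF, 28224 in SCNT and 24476 with KDM5B. In fibroblasts it was 7.09% of the members' sum, and in embryos it was the leading member with 22.2%, 30.4% and 24.0%. With KDM5B it was the highest locus of the whole column, and in SCNT the second highest.

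ENSBTAG00000043550.1 and ENSBTAG00000043564.1 were likewise low in fibroblasts and high in embryos. The first stood at 1194 FPKM in fibroblasts, 6511 in IVF, 15241 in SCNT and 10916 with KDM5B. The second stood at 537, 4408, 9976 and 3217 FPKM in the same order. Both peaked in SCNT embryos, and ENSBTAG00000043564.1 was the only abundant member that stood lower with KDM5B than in IVF as deposited. ENSBTAG00000043560.1 was high throughout, at 3553 FPKM in fibroblasts, 10588 in IVF, 9824 in SCNT and 12836 with KDM5B. It was the member with the narrowest range among embryos, 1.31-fold.

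A middle tier was ordered IVF, SCNT, SCNT with KDM5B from low to high. ENSBTAG00000043558.1 stood at 962 FPKM in fibroblasts, 4794 in IVF, 6432 in SCNT and 9411 with KDM5B. ENSBTAG00000043556.1 stood at 1327, 3084, 4358 and 6521 FPKM in that order of groups. ENSBTAG00000043577.1 stood at 973, 2915, 4027 and 5435 FPKM. These 3 kept nearly constant proportions among embryos, where the ratio of ENSBTAG00000043558.1 to ENSBTAG00000043577.1 varied 1.08-fold. The ratio of ENSBTAG00000043556.1 to ENSBTAG00000043577.1 varied only 1.13-fold over the embryo groups and 1.29-fold over all 4 groups, the narrowest of 78 pairs over all 4.

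ENSBTAG00000043559.1 and ENSBTAG00000043571.1 stood out in the KDM5B group. The first stood at 314 FPKM in fibroblasts, 1275 in IVF, 2174 in SCNT and 5296 with KDM5B, the widest range of any member among embryos at 4.15-fold. The second stood at 494, 2859, 2675 and 7232 FPKM. IVF and SCNT embryos were within 1.07-fold of each other for ENSBTAG00000043571.1, and the KDM5B group lay apart from both.

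The remaining 3 abundant members spanned 2.87-fold, 1.76-fold and 1.95-fold over the 4 groups, beside 2.65-fold for ENSBTAG00000043561.1. ENSBTAG00000043568.1 stood at 1421 FPKM in fibroblasts, 3619 in IVF, 2674 in SCNT and 4081 with KDM5B. ENSBTAG00000043546.1 stood at 827, 1091, 1329 and 1456 FPKM, and ENSBTAG00000043563.1 at 940, 1002, 1109 and 1836 FPKM. ENSBTAG00000043546.1 and ENSBTAG00000043563.1 were the lowest of the 13 in every embryo group, where they filled the last places in either order. In fibroblasts they ranked 10 and 9 of 13.

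**Figure D2:**
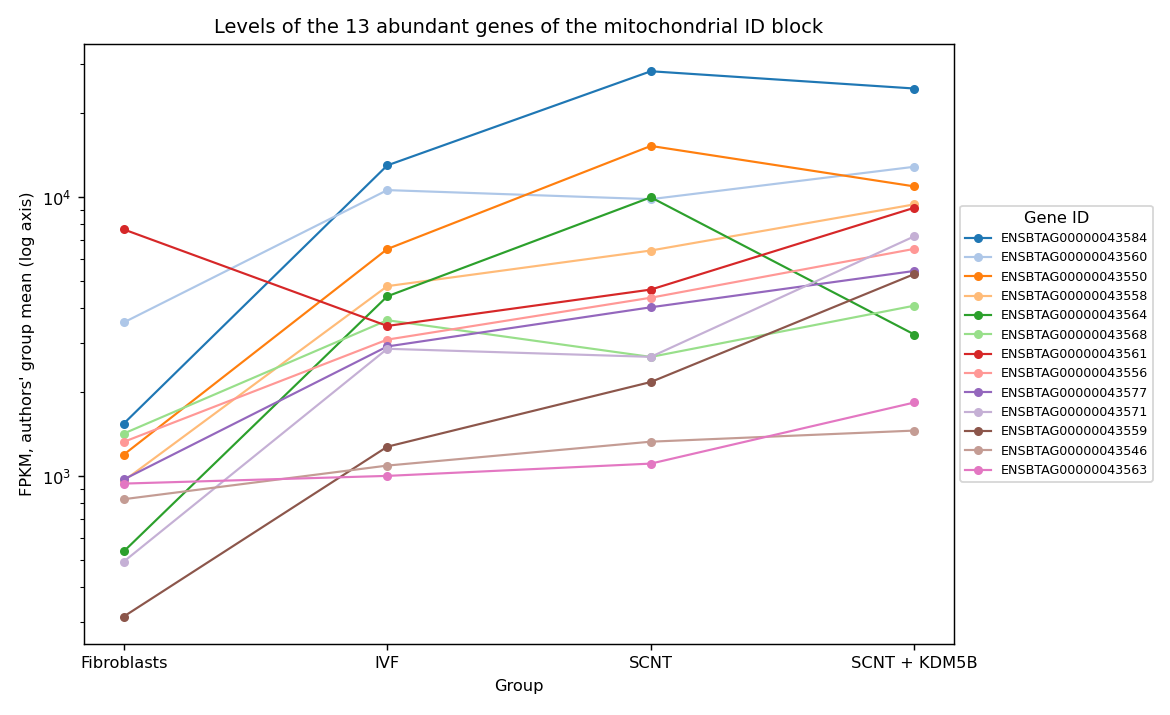
Level of each of the 13 abundant members in FPKM (vertical log axis) in the 4 groups (horizontal axis); points are the authors' group means and lines join the values of 1 gene, with no order in time. Lines climb from fibroblasts to IVF for 12 genes and drop for ENSBTAG00000043561, and ENSBTAG00000043564 drops from 9976 to 3217 FPKM between the clone groups.

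SCNT embryos were compared with IVF embryos on log2(FPKM + 1), over 14332 loci at 1 FPKM or more in either group. All 13 abundant members and 0 of the other 3 passed that limit. At least 2-fold higher in SCNT were 3 members (background 24.1% of loci), and 0 were at least 2-fold lower (background 38.0%). These 3, ENSBTAG00000043584.1, ENSBTAG00000043564.1 and ENSBTAG00000043550.1, were 2.17, 2.26 and 2.34 times as high in SCNT. The median difference of the 13 was 0.43, against -0.52 over all loci, with 10 members higher and 3 lower. The members' differences ran from -0.44 to 1.23 with an SD over genes of 0.52, against 1.72 over all loci. These spreads are not like for like, because the 13 stand at 300 FPKM or more in every group. The other loci could be near 0 in 1 of the groups. Loci outside the block at 100 FPKM or more in either group had a median of 0.47, so the members' median was not above that of other abundant loci. Scaling set part of this picture. Rescaled to equal column sums, 9 members were higher and 1 at least 2-fold, and after quantile normalization 7 were higher and 0 at least 2-fold, with a median of 0.05. Columns were also centred, each by its median log2 deviation from the locus means over the 4 groups. With columns so centred 12 were higher and 3 at least 2-fold, with a median of 0.63. Higher under all 4 scalings were 7 members, lower under all was 1 (ENSBTAG00000043568.1), and 5 changed sign or reached 0.

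SCNT embryos with KDM5B were then compared with SCNT embryos over 12607 loci. At least 2-fold higher with KDM5B were 2 members (background 7.61%), and 1 was at least 2-fold lower (background 2.13%). ENSBTAG00000043571.1 was 2.70 times and ENSBTAG00000043559.1 2.44 times as high with KDM5B, and ENSBTAG00000043564.1 was 0.322 times as high. In all 10 members were higher and 3 lower with KDM5B, with a median of 0.55 against 0.21 over all loci. Loci outside the block at 100 FPKM or more had a median of -0.000704. The 3 lower members were those with the largest SCNT to IVF ratios. Both comparisons use the SCNT mean, with opposite sign, and are not independent. The SD over genes was 0.80 for the members, against 0.60 over all loci and 0.70 over outside loci at 100 FPKM or more. That SD rests heavily on ENSBTAG00000043564.1, at -1.63. The other abundant members ran from -0.48 to 1.43, and their SD without that gene was not computed. Higher under all 4 scalings were 9 members and lower under all were 2. ENSBTAG00000043546.1 (0.13) turned to -0.07 with columns centred as above. ENSBTAG00000043584.1 (-0.21) turned to 0.95 after quantile normalization, where its step from second to first place takes on the gap between the top values.

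Against IVF embryos, SCNT embryos with KDM5B held 4 members at least 2-fold higher (background 26.4%) and 0 at least 2-fold lower (background 31.8%), over 14538 loci. ENSBTAG00000043559.1 was 4.15 times as high as in IVF, ENSBTAG00000043561.1 2.65 times, ENSBTAG00000043571.1 2.53 times and ENSBTAG00000043556.1 2.11 times. The 3 members counted as higher in the first comparison were here 1.89 times (ENSBTAG00000043584.1), 1.68 times (ENSBTAG00000043550.1) and 0.730 times (ENSBTAG00000043564.1) as high as in IVF. The median of the 13 was 0.90, against -0.29 over all loci and 0.52 over outside loci at 100 FPKM or more. As deposited 12 members were higher and ENSBTAG00000043564.1 was lower. Under all 4 scalings 10 stayed higher, and ENSBTAG00000043568.1 and ENSBTAG00000043546.1 changed sign. This comparison shares the IVF mean with the first and the KDM5B mean with the second.

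Fibroblasts were compared with IVF embryos over 15634 loci, which kept 15 members. At least 2-fold lower in fibroblasts were 10 members (background 40.9%), and 1 abundant member, ENSBTAG00000043561.1, was at least 2-fold higher (background 35.6%). The low ENSBTAG00000043581.2 also counted as higher, but it and ENSBTAG00000043553.2 passed the 1 FPKM limit through fibroblasts alone, so nothing is read from them. ENSBTAG00000043584.1 was 8.42 times and ENSBTAG00000043550.1 5.45 times as high in IVF. The median of the 13 abundant members was -1.58, against -0.31 over all loci and -1.78 over outside loci at 100 FPKM or more. Of those outside loci, 54.7% were at least 2-fold lower and 37.2% at least 2-fold higher in fibroblasts. Under all 4 scalings 9 members stayed lower and 1 higher, ENSBTAG00000043561.1. ENSBTAG00000043563.1, ENSBTAG00000043560.1 and ENSBTAG00000043546.1 changed sign or reached 0.

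SCNT embryos were lastly set against fibroblasts over 14703 loci. At least 2-fold higher in SCNT were 9 members (background 36.7%), all abundant, and 0 abundant members were at least 2-fold lower (background 38.6%). The low ENSBTAG00000043581.2 and ENSBTAG00000043553.2 also counted as lower, but they passed the 1 FPKM limit through fibroblasts alone, so nothing is read from them. ENSBTAG00000043564.1 was 18.6 times, ENSBTAG00000043584.1 18.3 times and ENSBTAG00000043550.1 12.8 times as high in SCNT. ENSBTAG00000043561.1 was the only abundant member lower in SCNT as deposited. The median of the 13 was 2.05, against -0.02 over all loci and 1.82 over outside loci at 100 FPKM or more. The median of the 13 was 1.30 with equal column sums, 1.61 after quantile normalization and 1.96 with columns centred. Under all 4 scalings 9 members stayed higher and 1 lower.

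**Figure D3:**
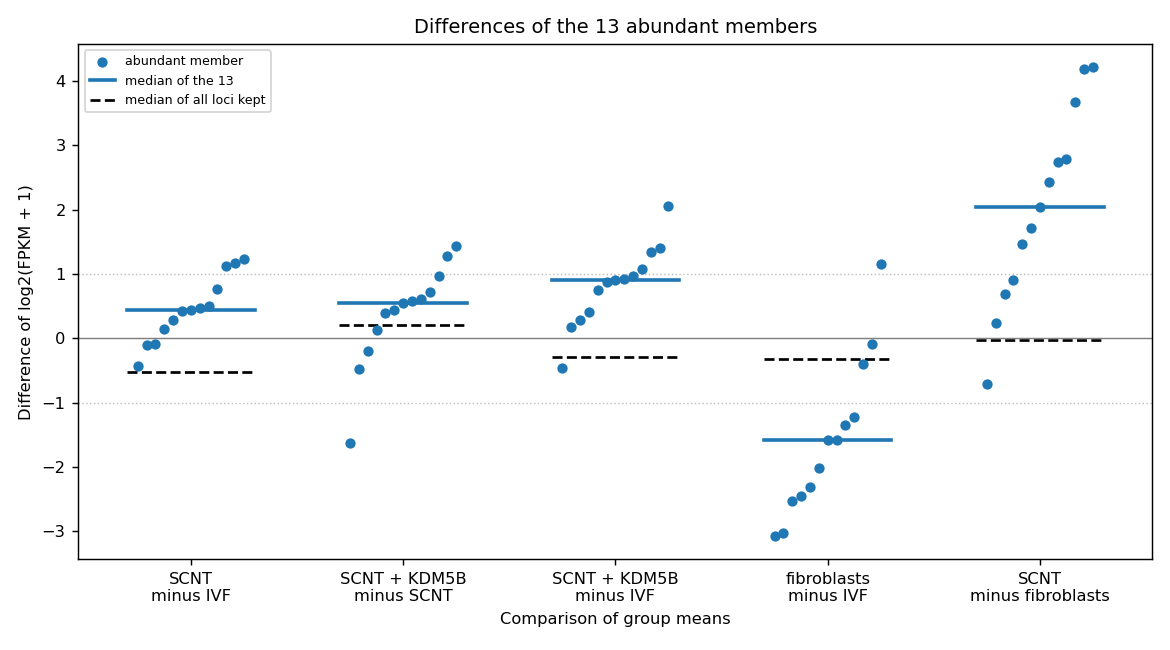
Difference of log2(FPKM + 1) between group means (vertical axis) for each of the 13 abundant members (points) in 5 comparisons (horizontal axis); solid bars are the members' median, dashed bars the median of all loci kept, and dotted lines mark 2-fold. The members' medians are 0.43, 0.55, 0.90, -1.58 and 2.05, and those of all loci -0.52, 0.21, -0.29, -0.31 and -0.02. The points spread widest in the comparisons with fibroblasts.

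On the deposited scale the members mostly shared a direction of difference but not its size. Between SCNT and IVF, 7 were higher under all 4 scalings, 1 was lower, and 5 changed sign or reached 0. As deposited, 12 of the 13 were lowest in fibroblasts, as were at most 45.8% of the 17066 other loci at 1 FPKM or more in any group. That percentage is an upper limit, because other loci at 0 in both fibroblasts and an embryo group were counted as lowest in fibroblasts. Highest with KDM5B were 10 of 13, against 17.3% of the other loci, and the order IVF, SCNT, SCNT with KDM5B from low to high was held by 7 of 13, against 21.5%. In all 5 different orders of the 4 groups occurred among the 13. Genes of 1 column share its scale, so such counts are not independent across members. The 17066 loci were not matched to the members in level. Of outside loci at 100 FPKM or more in either group, 65.3% were higher in SCNT than in fibroblasts. The counts of lowest, highest and ordered groups were made on the deposited scale only. With equal column sums 3 members were higher in fibroblasts than in IVF, against 1 as deposited, so fewer than 12 would be lowest in fibroblasts.

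The proportions among members were closer between embryo groups than between embryos and fibroblasts. Over the 13 members, Pearson's r of log2 levels was 0.93 between IVF and SCNT, 0.85 between IVF and SCNT with KDM5B, and 0.81 between the clone groups. It was 0.45, 0.30 and 0.41 between fibroblasts and IVF, SCNT and the KDM5B group. The rank correlation, Spearman's rho, was 0.92, 0.78 and 0.76 among embryos and 0.60, 0.46 and 0.57 with fibroblasts. These are descriptions over 13 genes that share their columns. Put as shares of the members' sum, 17.0% of it lay on other genes in SCNT than in IVF, 12.8% in SCNT with KDM5B than in IVF, and 19.8% between the clone groups. Between fibroblasts and the embryo groups the figure was 35.1% for IVF, 46.6% for SCNT and 37.4% with KDM5B. Most of each of these figures came from ENSBTAG00000043561.1. It held 35.2% of the members' sum in fibroblasts, against 5.89% in IVF, 5.03% in SCNT and 8.99% with KDM5B. Of the 78 pairs of members, 41 kept their ratio within 2-fold over the 3 embryo groups and 11 over all 4 groups. The least constant ratio was that of ENSBTAG00000043561.1 to ENSBTAG00000043564.1, which varied 30.5-fold over the 4 groups and 6.09-fold among embryos.

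**Figure D4:**
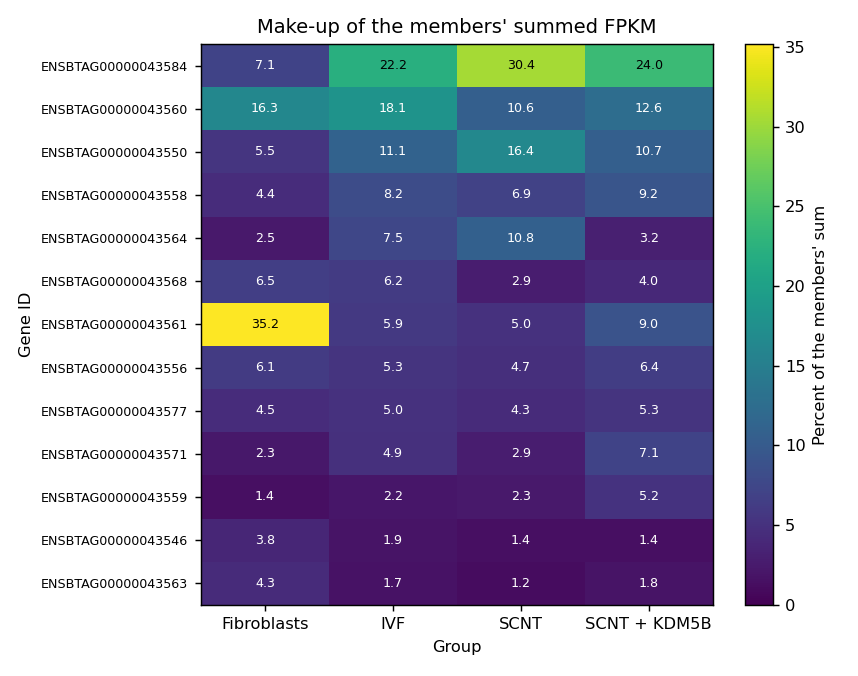
Share of the members' summed FPKM held by each abundant member, in percent (colour and printed values), for 13 genes (vertical axis) and the 4 groups (horizontal axis). ENSBTAG00000043561 holds 35.2% in fibroblasts and at most 8.99% in embryos, while ENSBTAG00000043584 holds 22.2% to 30.4% in embryos.

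In columns of equal sums, a larger mitochondrial share leaves less for other loci. Loci outside the block held 95.9% of summed FPKM in fibroblasts, 92.4% in IVF, 89.5% in SCNT and 88.5% with KDM5B. Taking columns from equal sums over all loci to equal sums over the loci outside the block would add 0.05 to every SCNT minus IVF log2 ratio, 0.02 to every KDM5B minus SCNT ratio and 0.10 to every SCNT minus fibroblast ratio. The deposited columns do not have equal sums, and these shifts do not apply to the differences as deposited.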

How the data were processed

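RNA sequencing libraries of 12 samples, 3 in each of 4 groups, were grouped by the labels' titles, also for fibroblasts, whose sample group label conflicts with the title. The deposited values are FPKM, given by the authors as 1 column per group. Each is a whole multiple of 0.01 divided by 3 for at least 99.9955% of loci (tolerance 0.001 on the value times 300), so the columns are read as means of 3 libraries. Per the submitters' processing notes, the tools were RSEM 1.2.12, Bowtie2 2.2.5, StringTie 1.0.4, HISAT 0.1.6 and bcl2fastq 2.16, with build UMD3.1 and no role given. Depth is unknown.

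Members were taken by ID number, and the members, comparisons and lists were chosen with earlier results of these data known. Differences of log2(FPKM + 1) between group means were computed over loci at 1 FPKM or more in either group and counted at 2-fold. No test could be made with 1 value per group. Members at 1 FPKM or more in any group were to be named, and ENSBTAG00000043578.2, below that, was named after its values were seen. The code was tested on simulated data. Alternatives were pseudocounts of 0.1 and 5, no filter, a mean of 5 FPKM, equal column sums (1000000, as in TPM), quantile normalization, centred columns, and other sums for the shares. Centring took from each column its median log2 deviation from the locus means over the groups, among loci at 1 FPKM or more in any group. A limit of 100 FPKM was added after the data were seen. Python 3.11.15, numpy 2.4.6, pandas 2.3.3 and matplotlib 3.10.9 were used.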

Additional observations from a re-analysis of the deposited data

How the results depend on the processing

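Under the alternatives 102 values changed by at most 1.5 times (log2 medians read as folds), 5 by more, and 0 turned in sign. Pseudocounts hardly alter the 13 members at 300 FPKM or more and filters do not, so many of the 102 could not have moved. The limit of 1.5 also exceeds the SCNT to IVF median read as a fold, 1.35. The fall of that log2 median from 0.43 to 0.05 after quantile normalization was therefore counted among the 102. Members 2-fold apart between SCNT and IVF numbered 1 with columns rescaled to equal sums and 0 after quantile normalization, against 3 as deposited. Between SCNT with KDM5B and IVF they numbered 2 after quantile normalization, against 4. Over the 15 members kept, the median SCNT minus fibroblast difference was 0.97 with equal column sums, against 1.71 as deposited. Without its highest member the fibroblast share of the column was 2.67%, against 4.11%. Pseudocounts of 0.1 and 5 changed each count by at most 1. No paired analysis was possible because each column averages a group's libraries. For that reason fits without single replicates were not run either. The precision of the means cannot be given without library values.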
